A study of Mus musculus with 16 samples.

Results

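Keratins are the intermediate filament proteins of epithelial cells, and this report follows 10 of their genes through single cells of the pubertal mouse mammary gland. The 10 were taken by name as the keratins of mammary epithelium, out of 44 keratin genes and 17721 genes in the count table (67 spike-in rows aside). They are Krt5, Krt14, Krt15 and Krt17, which mark the basal layer, Krt7, Krt8, Krt18 and Krt19, which mark luminal cells, and Krt4 and Krt23, which are less often used as markers. Single cells had been sorted from 4 nipple, 6 duct and 6 terminal end bud (TEB) fragments, each dissected on its own. The study's description of the sequenced samples names K14-Cre/R26-mTmG mice aged 5 weeks, its dissection methods also name wild-type and slightly older mice, and the labels give a C57BL/6 background for every fragment. By the former, all 3 locations carried the same alleles, including a Cre recombinase driven by the Krt14 promoter and a membrane reporter that changes colour after recombination, and no location received a treatment. The labels do not say which fragments came from the same mouse, so p-values measure the spread between fragments.

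Keratin filaments are built from pairs, in which a type I (acidic) keratin joins a type II (basic to neutral) keratin, so a cell needs at least one gene of each type. In the mammary duct an outer basal layer of contractile myoepithelial cells, which use the Krt5 and Krt14 pair, surrounds an inner luminal layer, which uses the Krt8 and Krt18 pair. The luminal layer holds hormone-sensing cells with estrogen receptor (ER+) and cells without it (ER-), among which are the progenitors of milk-secreting cells. TEBs are the club-shaped growing tips that push the ductal tree into the fat pad during puberty, and the nipple lies at the other end of that tree.

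The type I genes other than Krt18 lie close together on chromosome 11 of GRCm38, all on the minus strand: Krt23 at chr11:99477974-99493137, Krt15 at chr11:100131758-100135928, Krt19 at chr11:100140810-100148665, Krt14 at chr11:100203162-100207548 and Krt17 at chr11:100256217-100261029. The type II genes lie on chromosome 15, with Krt7 at chr15:101411043-101430313 on the plus strand and Krt5 (chr15:101707070-101712898), Krt4 (chr15:101918535-101924735) and Krt8 (chr15:101996698-102004482) on the minus strand. Krt18 is the type I gene outside the chromosome 11 group. It lies at chr15:102028180-102032027 on the plus strand, 23697 bases from Krt8 and read in the opposite direction. The RefSeq promoter sequences (GRCm38.p6) held entries for 6 of the 10 genes, namely Krt5, Krt7, Krt8, Krt14, Krt18 and Krt23. In the 30 bases from 40 to 11 before the RefSeq transcript start, where a TATA box lies in promoters that have one, the letters ATAAA were present on the gene's strand in Krt5 and in Krt23. These 2 windows are shown because the 2 genes later moved in opposite directions between duct and TEB basal cells. The capitals mark ATAAA, and each window is read 5′ to 3′ on the gene's strand, Krt5 at chr15:101712916-101712945 and Krt23 at chr11:99493131-99493160, whose last bases lie inside the gene as GENCODE draws it.
Krt5: cttctaaggggATAAAaggggacctcaaat
Krt23: gcaaagggcATAAAaccatctcaagcagtc
The same letters stood in 4.68% of the 32851 such windows in the table on the gene's strand, and in 7.09% on either strand, with no other motif searched.

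The files held 1419 cells, of which 1318 passed the study's limits, and each fragment's cells summed to between 1856141 and 5233122 unique molecular identifiers (UMIs), spike-ins included. Clustering with every keratin gene left out gave 294 basal-like cells (97 nipple, 115 duct, 82 TEB), 428 ER+ luminal-like cells (43, 212, 173) and 178 ER- luminal-like cells (48, 81, 49), beside 252 fibroblast-like, 78 myeloid-like and 88 unnamed cells. The basal-like class was made of different clusters by location. Cluster 1, led by the smooth muscle genes Cnn1, Actg2 and Myh11, held 96 nipple, 115 duct and 1 TEB cells, while cluster 5, led by A230065H16Rik, Fabp5 and Gpx2, held 81 TEB cells and 1 nipple cell. Cluster 5 scored slightly higher on an epidermal list (mean z 1.06) than on the basal list (0.93). The 9 epidermal markers together summed to 911 to 1400 CPM (UMIs scaled to a common library size) in nipple, 1256 to 1721 CPM in duct and 1357 to 2119 CPM in TEB basal-like sums. Of these, Lgals7 had a pooled level of 982, 1342 and 1450 CPM in nipple, duct and TEB, Krtdap 3.22, 2.42 and 6.16 CPM and the cornified envelope gene Lor 0, 1.38 and 7.23 CPM, while Flg2 was at 0 at every location. Other members were not highest in TEB, with Ly6d at 99.7, 36.0 and 74.7 CPM, Dmkn at 32.2, 50.5 and 31.1 CPM and Sbsn at 14.7, 13.5 and 13.4 CPM. Calml3 and Ivl were at most 1.61 CPM. The part of this list in the results below was not tested. The summed level of the 8 basal markers, none of them a keratin and none at 0, was 6280 to 7278 CPM in nipple, 11300 to 16810 CPM in duct and 2142 to 5011 CPM in TEB basal-like sums, so the contractile genes moved with the location as well. The summed level of 6 fibroblast markers was higher in nipple sums of all 3 classes (872 to 2194 CPM) than in duct and TEB sums (114.5 to 587.5 CPM), and its part in the results below was not tested.

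Keratin UMIs were also found in cells that should lack them. The 95 well barcode names were shared by 11 to 16 fragments, and Krt8 had at least 1 UMI in 1306 of the 1318 cells (99.1%), stromal cells included. The RNA that the other wells of a fragment would add to each class was therefore estimated from the level of fibroblast and myeloid markers, set against their level over all wells of the fragment. The fibroblast markers named above are among them. No luminal or basal marker entered the estimate, so it does not measure directly how much RNA of luminal cells reached basal-like cells. Free RNA, doublets and mixed barcodes cannot be told apart in it. The median estimate was 7.71%, 11.5% and 6.02% of the RNA of basal-like sums in nipple, duct and TEB. In fibroblast-like and myeloid-like cells together, the Krt8 level had a median over fragments of 186 CPM in nipple, 581 CPM in duct and 248 CPM in TEB. Krt14 had a median of 56.0, 75.2 and 5.23 CPM there. Where this estimate is taken off a level below, the log2 difference is that of the mean levels left, with means below 0 set to 0 and 1 CPM added.

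Each class had its own set of keratins. These values describe the classes and carry no test, since the classes were made from the same cells. The counts are of 3′ ends, 1 per molecule irrespective of transcript length, so transcript length does not bias levels between genes. The levels of Krt14, Krt17 and Krt8 beside other genes are less certain, since they have near-identical copies or stretches and only unique alignments were kept. Krt17 and Krt14 were the highest of the 10 in basal-like cells, with 4314 ± 2013 CPM and 3555 ± 2507 CPM (mean ± SD over 16 fragments), ahead of Krt8 (2585 ± 1195), Krt5 (1268 ± 662) and Krt15 (1249 ± 1004). The spreads of neighbours in this order overlapped, and the order differed by location, with Krt14 (6338 CPM) above Krt17 (5723 CPM) in nipple and Krt14 (570 CPM) below Krt8 (1327 CPM) in TEB. The level in basal-like cells was higher than in ER+ luminal-like cells of the same fragment in 16 of 16 fragments for Krt5 (median 100-fold over the 15 fragments with both above 0), Krt17 (62.7-fold), Krt14 (57.4-fold) and Krt15 (35-fold).

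The luminal keratins had the reverse order. Krt19 (6261 ± 1331 CPM), Krt8 (5960 ± 1407) and Krt18 (5289 ± 1141) were close to each other in ER+ luminal-like cells, and Krt7 stood below them (2129 ± 519). In ER- luminal-like cells Krt8 was the highest (8606 ± 2531 CPM, 14 fragments), followed by Krt18 (6479 ± 1836), Krt19 (5482 ± 1331) and Krt7 (1625 ± 613). All 4 were lower in basal-like than in ER+ luminal-like cells in 16 of 16 fragments, but by different amounts, from a median of 2.10-fold for Krt8 through 6.67-fold for Krt18 and 7.86-fold for Krt19 to 18.2-fold for Krt7. Krt8 was thus the luminal keratin with the highest level in basal-like cells.

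Krt4 and Krt23 split the luminal layer. Krt4, a type II keratin best known from stratified epithelia of the mouth and oesophagus, was higher in ER+ than in ER- luminal-like cells in 14 of 14 fragments (151 ± 129 against 7.34 ± 7.13 CPM). Krt23, a type I keratin, was higher in ER- than in ER+ luminal-like cells in 14 of 14 fragments (60.3 ± 47.9 against 3.34 ± 3.35 CPM), and was higher still in basal-like cells on average (162 ± 121 CPM), although there the basal-like level exceeded the ER- level in only 9 of 14 fragments.

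**Figure D1:**
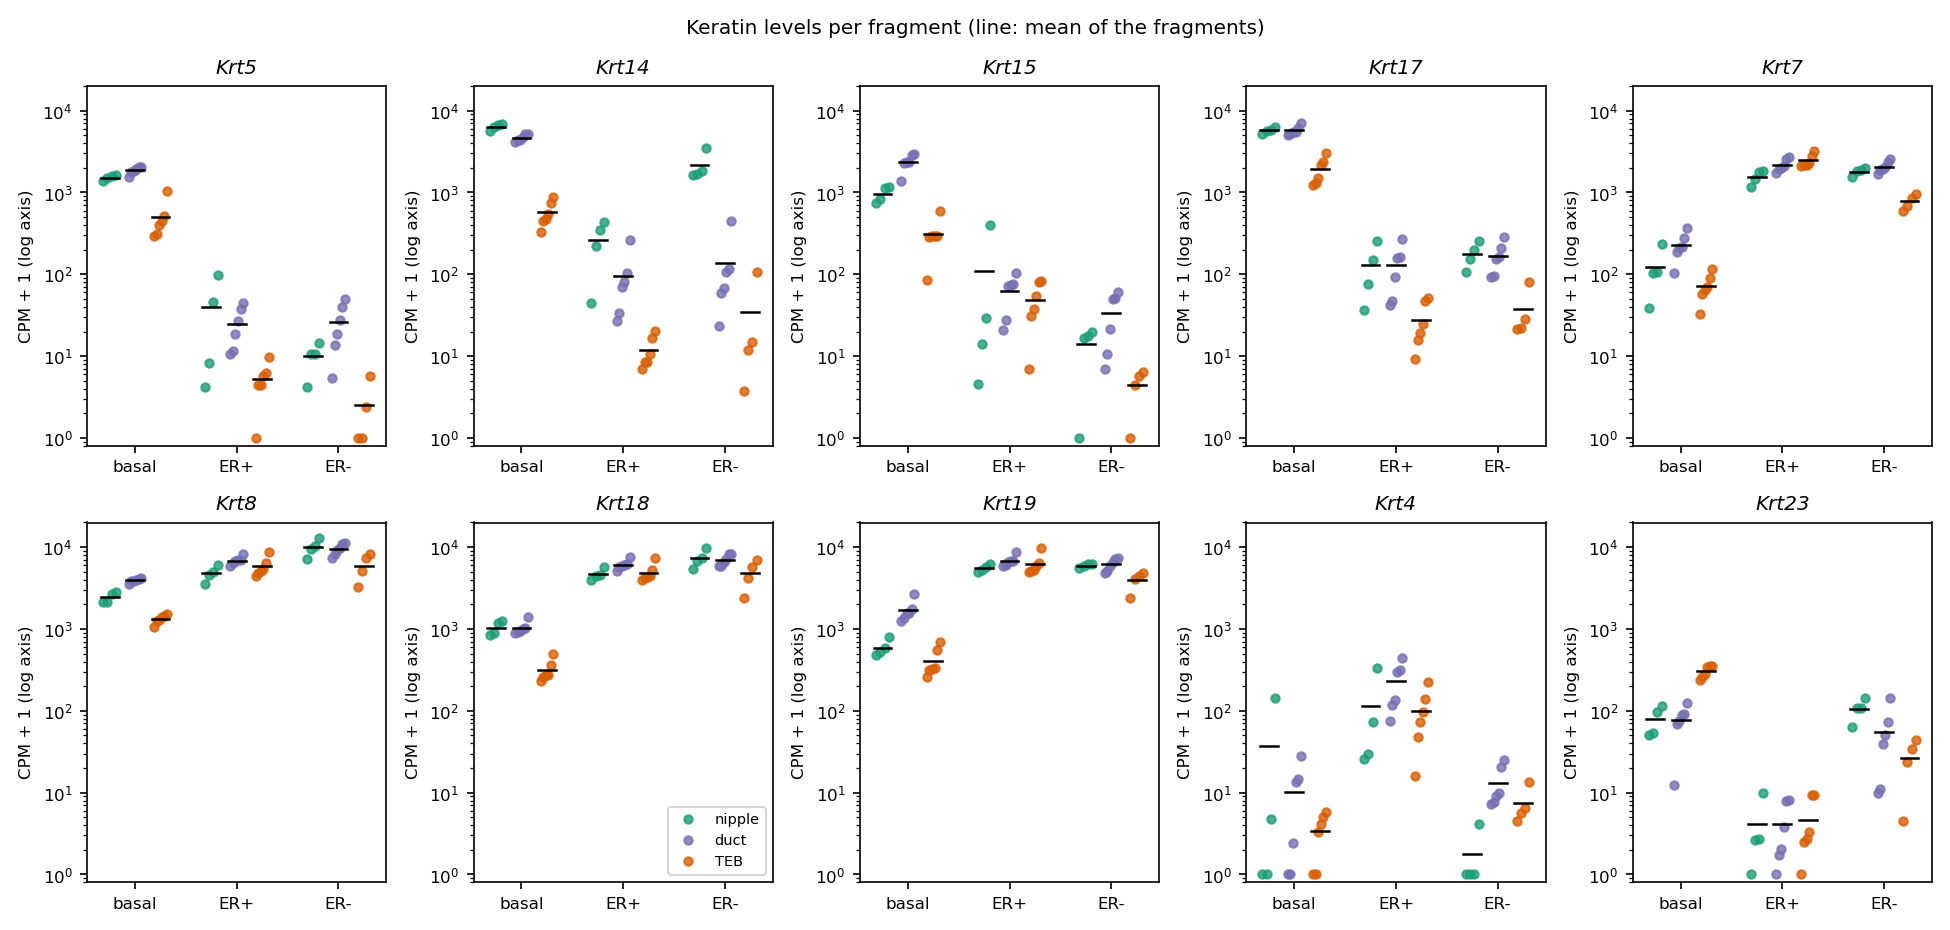
Level of the 10 keratins (CPM + 1, log axis) in each fragment's basal, ER+ luminal and ER- luminal cells, with 1 point per fragment, colours for nipple, duct and TEB, and a line at the mean of the fragments. Krt5, Krt14, Krt15 and Krt17 are highest in basal cells and lower there in TEB, Krt23 is higher in TEB basal cells, and Krt14 in ER- luminal cells is higher in each nipple fragment than in any duct or TEB fragment.

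The 10 keratins together, without the other keratin genes, made up 1.75 ± 0.10% of the UMIs of nipple basal-like cells (SD, n = 4), 2.02 ± 0.19% in duct (n = 6) and 0.600 ± 0.10% in TEB (n = 6), and the TEB range (0.467 to 0.730%) did not meet the other 2. For the same 10 genes, luminal classes kept between 1.53 and 2.50% on average at every location. TEB basal-like cells also had more UMIs per cell, with a median of 43900 UMIs per cell against 21460 in nipple and 23040 in duct. The raw UMIs of the basal keratins were nevertheless fewer there, for example 2257 of Krt14 in 82 TEB cells against 12799 in 97 nipple cells.

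The location comparisons asked whether the keratins of a class differ between nipple, duct and TEB, and used edgeR's quasi-likelihood test over all genes with Benjamini-Hochberg adjustment, with differences on the log2 scale. In basal-like cells 9 keratins passed the filter on low counts, all but Krt4. Between duct and TEB all 9 passed the threshold, 8 higher in duct, with a median log2 difference of 1.70 (background: 10.4% of the 7316 genes tested passed, with a median of -0.04). Between nipple and TEB 7 of 9 passed, 6 of them higher in nipple (median 1.58, background 18.7% and -0.05). Between nipple and duct 2 of 9 passed, both higher in duct (median -0.30, background 6.29% and -0.04). Duct and nipple were each compared with the same TEB fragments, so these lists share their controls.

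Krt14, the type I partner of Krt5, showed the largest of these differences. Its level was 6261, 6626, 6878 and 5588 CPM in basal-like cells of the nipple fragments N21, N22, N23 and N24. The 6 duct fragments ran from 4173 to 5244 CPM (median 4565), and the 6 TEB fragments from 330 to 889 CPM (median 510). No TEB fragment came near a nipple or duct fragment. The log2 difference was 3.47 ± 0.19 (SE) between nipple and TEB (edgeR adjusted p = 3.58e-11) and 3.04 ± 0.18 between duct and TEB (edgeR adjusted p = 1.37e-10). Nipple lay above duct in every fragment, but that difference of 0.44 ± 0.18 did not pass (edgeR adjusted p = 0.19). With RNA of other wells taken off, a correction chosen after seeing the data, a different test called this pair (exact permutation, adjusted p = 0.0214). RNA of other wells accounted for an estimated 1.73 to 3.43% of Krt14 in basal-like sums.

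Krt5, the type II keratin of the basal layer, followed with a smaller difference. Nipple fragments had 1582, 1623, 1372 and 1485 CPM (N21 to N24), duct fragments 1532 to 2071 CPM (median 1907) and TEB fragments 293 to 1037 CPM (median 421). TEB fragment T32, at 1037 CPM, stood apart from the next at 522 CPM, and all 6 were below every other fragment. Krt5 was higher in nipple than in TEB by 1.62 ± 0.25 (edgeR adjusted p = 0.000136) and in duct than in TEB by 1.92 ± 0.24 (edgeR adjusted p = 1.21e-05), while nipple and duct overlapped (-0.30 ± 0.25, edgeR adjusted p = 0.62). As Krt14 moved more than Krt5, the number of Krt14 UMIs per Krt5 UMI was 4.13 in nipple, 2.53 in duct and 1.42 in TEB.

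Krt17, a type I keratin of basal and of stressed or wounded epithelium, was at 5739, 5694, 6250 and 5208 CPM in the nipple fragments, 5091 to 7141 CPM in duct (median 5503) and 1227 to 3008 CPM in TEB (median 1835). It kept the same level in nipple and duct to within the spread (-0.01 ± 0.21) and was lower in TEB than in either, with log2 differences of 1.58 ± 0.21 from nipple (edgeR adjusted p = 3.48e-05) and 1.59 ± 0.19 from duct (edgeR adjusted p = 1.96e-05). Of the basal keratins it was the one that kept the highest level in TEB. Krt14 and Krt17 have near-identical stretches with each other and with Krt16, and the authors kept only reads that aligned to 1 place, so the levels of these genes relative to each other are less certain than the location differences of one gene.

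Krt15, a type I keratin associated with basal progenitors of skin and other stratified epithelia, was the basal keratin that separated duct from nipple most. It was at 748, 841, 1123 and 1162 CPM in the nipple fragments, 1383 to 2992 CPM in duct (median 2382) and 83.9 to 601 CPM in TEB (median 292). The 3 locations did not overlap. The difference between duct and TEB was 2.96 ± 0.34 (edgeR adjusted p = 3.3e-05) and that between nipple and TEB 1.66 ± 0.36 (edgeR adjusted p = 0.00436). The difference between nipple and duct of -1.29 ± 0.37 lay just outside the threshold (edgeR adjusted p = 0.0529). It was called with RNA of other wells taken off, again by the other test (exact permutation, adjusted p = 0.0214). Other wells accounted for an estimated 1.45 to 2.57% of Krt5, 1.47 to 2.70% of Krt17 and 1.70 to 3.88% of Krt15 in basal-like sums.

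Luminal keratins were also present in basal-like cells, and Krt8, the type II partner of Krt18, was the main one. Its level in nipple fragments was 2649, 2119, 2869 and 2119 CPM, in duct fragments 3552 to 4212 CPM (median 3946) and in TEB fragments 1060 to 1505 CPM (median 1344). The 3 ranges were separate, in the order duct, nipple, TEB. Krt8 was higher in duct than in TEB by 1.57 ± 0.10 (edgeR adjusted p = 1.25e-13), in nipple than in TEB by 0.88 ± 0.11 (edgeR adjusted p = 3.15e-07) and in duct than in nipple by a difference of -0.69 ± 0.11 (nipple minus duct, edgeR adjusted p = 0.000135). RNA of other wells accounted for an estimated 7.90% of Krt8 in nipple, 17.4% in duct and 25.0% in TEB basal-like sums. With that RNA taken off, Krt8 was at 2085, 3021 and 1131 CPM, and all 3 pairs still passed (two-sided exact permutation over fragments, with p = 0.00476 and adjusted p = 0.0214 between nipple and TEB, p = 0.00952 and 0.0408 adjusted between nipple and duct, and p = 0.00216 and 0.0214 adjusted between duct and TEB, over 90 comparisons). This correction was chosen after seeing the data.

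Krt18 and Krt19 were lower in basal-like cells and owed more of their counts to other wells. Krt18, the type I partner of Krt8, had 1252, 846, 882 and 1166 CPM in the nipple fragments, 901 to 1383 CPM in duct (median 971) and 228 to 494 CPM in TEB (median 275). It was higher than in TEB by 1.71 ± 0.18 in nipple (edgeR adjusted p = 6.06e-09) and by 1.70 ± 0.17 in duct (edgeR adjusted p = 1.9e-09). The estimate from other wells was 14% of Krt18 in nipple, 51.9% in duct and 77.4% in TEB, and once it was taken off the means were 825, 457 and 131 CPM. Nipple then still lay above TEB (exact permutation, adjusted p = 0.0214), while duct against TEB no longer passed (exact permutation, adjusted p = 0.0882).

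Krt19, a small type I keratin that lacks the usual tail, had 790, 526, 578 and 475 CPM in the nipple fragments, 1262 to 2685 CPM in duct (median 1575) and 261 to 688 CPM in TEB (median 329). Duct fragments lay above all others, and nipple and TEB overlapped. Krt19 was higher in duct than in TEB by 2.04 ± 0.23 (edgeR adjusted p = 1.57e-06) and lower in nipple than in duct by a difference of -1.52 ± 0.26 (edgeR adjusted p = 0.000877), while nipple against TEB did not pass (0.52 ± 0.25, edgeR adjusted p = 0.165). Other wells accounted for an estimated 25.1, 35.4 and 68.1% of Krt19 in nipple, duct and TEB. Both duct differences held after that RNA was taken off (exact permutation, adjusted p = 0.0214 each).

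Krt7, a type II keratin of glandular epithelium, could not be told from RNA of other wells in TEB basal-like cells. It was at 105, 235, 103 and 38.3 CPM in the nipple fragments, 103 to 368 CPM in duct and 32 to 114 CPM in TEB, against an estimate from other wells of 32.1, 80.5 and 155% of these counts. The difference between duct and TEB of 1.66 ± 0.34 (edgeR adjusted p = 0.000751) was not called once that RNA was taken off (5.70, from mean levels left of 51 CPM in duct and -19.5 CPM in TEB, exact permutation, adjusted p = 0.177), nor when cells were thinned to 5000 UMIs (1.07, edgeR adjusted p = 0.074).

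**Figure D2:**
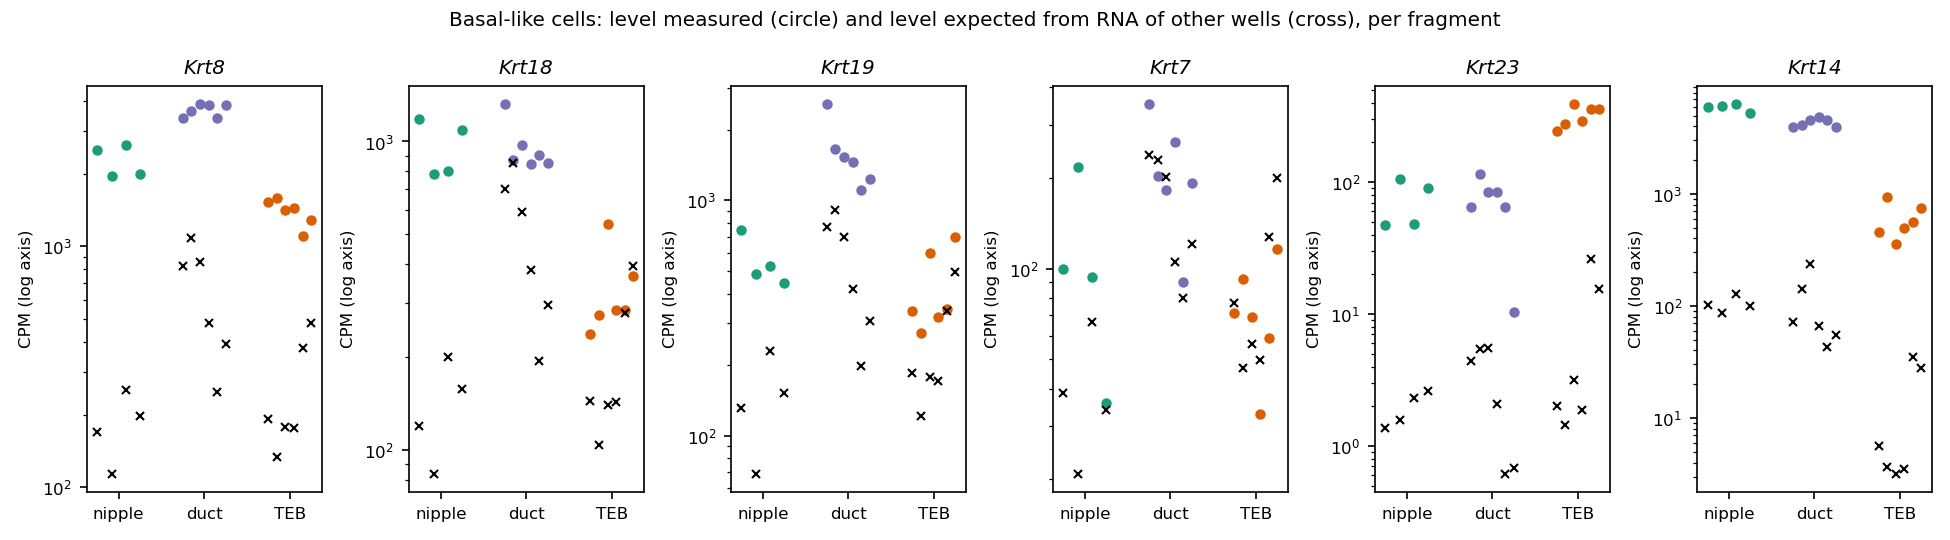
Level in basal-like cells of each fragment (circle, CPM per all UMIs of the sum, log axis) for Krt8, Krt18, Krt19, Krt7, Krt23 and Krt14, and the level that RNA of other wells would give (cross), by location. Circles stand above crosses in every fragment for Krt8, Krt14 and Krt23, close to crosses in several duct and TEB fragments for Krt18 and Krt19, and below crosses for Krt7 in 4 of 6 TEB fragments.

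Krt23 ran against the other 8. Its level in basal-like cells was 49.8, 114, 52.8 and 95.7 CPM in the nipple fragments, 11.4 to 123 CPM in duct (median 80.5) and 234 to 356 CPM in TEB (median 314). Each TEB fragment lay above each nipple and duct fragment. Krt23 was higher in TEB than in nipple (nipple minus TEB -1.95 ± 0.37, edgeR adjusted p = 0.000162) and than in duct (duct minus TEB -2.02 ± 0.32, edgeR adjusted p = 1.88e-05), and nipple and duct did not differ beyond the spread (0.07 ± 0.36). Other wells accounted for an estimated 2.56 to 4.61% of it, and in stromal cells its median over fragments was at most 5.83 CPM, although 1 duct fragment reached 135 CPM there. Krt4 was close to 0 in basal-like cells (2.37 CPM in TEB and 9.06 CPM in duct on average) apart from nipple fragment N21, at 141 CPM, beside 0, 0 and 3.83 CPM in the other nipple fragments, and was not tested.

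**Figure D3:**
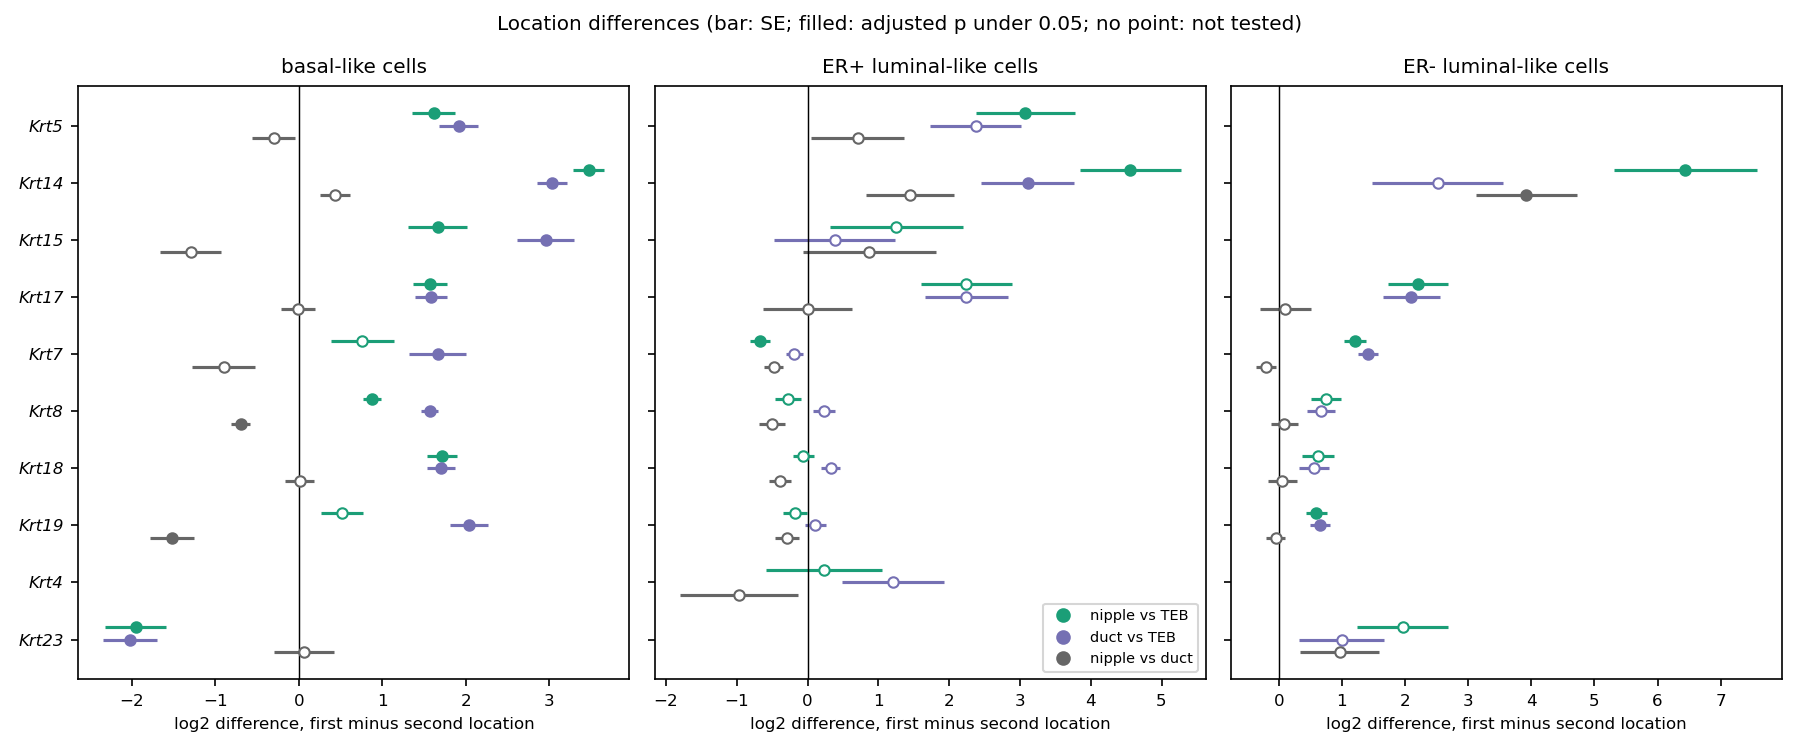
log2 difference between locations (first minus second, with bars for the standard error) for each keratin in the 3 epithelial classes, where filled points have an adjusted p under the threshold and a missing point was not tested. In basal-like cells every duct minus TEB point is filled, 8 to the right of 0 and Krt23 to its left, while in luminal cells most points are open and Krt14 lies farthest to the right.

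In ER+ luminal-like cells Krt7 was the one luminal keratin with a difference between locations that passed the test. Of 9 keratins tested (all but Krt23, which had at most 9.04 CPM in any fragment), 3 passed between nipple and TEB (background 5.58% of 8780 genes), 1 between duct and TEB (1.66%) and 0 between nipple and duct (1.98%, with 4 of 9 at an unadjusted p under 0.05 and 0 called by DESeq2). Krt8 was at 5009, 6112, 3564 and 4618 CPM in the nipple fragments, 5840 to 8306 CPM in duct and 4423 to 8843 CPM in TEB. Krt18 and Krt19 had differences between -0.39 (Krt18, nipple minus duct) and 0.33 (Krt18, duct minus TEB), and none passed. Krt7 was at 1815, 1779, 1477 and 1150 CPM in the nipple fragments, all below the TEB range of 2098 to 3233 CPM (nipple minus TEB -0.67 ± 0.14, edgeR adjusted p = 0.00246), with the duct fragments between (1737 to 2691 CPM). That difference held with RNA of other wells, an estimated 2.83 to 7.50% of Krt7 here, taken off (exact permutation, adjusted p = 0.0214). The sum of the 9 epidermal markers moved with it, at 489 to 989 CPM in nipple, 651 to 1012 CPM in duct and 1402 to 2518 CPM in TEB ER+ luminal-like sums. Most of that sum was Ly6d, with a pooled level of 594, 690 and 1762 CPM in nipple, duct and TEB. Lgals7 (71.8, 46.3 and 23.8 CPM), Sbsn (60.1, 26.5 and 44.1 CPM) and Dmkn (53.3, 64.1 and 31.7 CPM) were not highest in TEB. The rest of the list was at most 2.91 CPM, and the part of these markers was not tested.

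Basal keratins were low in ER+ luminal-like cells. Krt14 was at 43.4, 429, 348 and 222 CPM in the nipple fragments, 26.0 to 261 CPM in duct (median 74.0) and 5.94 to 19.0 CPM in TEB (median 8.46). It was higher than in TEB by 4.56 ± 0.71 in nipple (edgeR adjusted p = 0.0012) and by 3.11 ± 0.66 in duct (edgeR adjusted p = 0.0251). The estimate from other wells was 47.9% of these counts in nipple, 105% in duct and 89.0% in TEB, and with it taken off neither difference passed (5.43 in nipple, exact permutation, adjusted p = 0.0882, and -1.69 in duct, exact permutation, adjusted p = 0.856). The mean levels left were 138 CPM in nipple, -1.82 CPM in duct and 2.23 CPM in TEB. The duct call was also lost without TEB fragment T31, T32, T33 or T34 (differences of 2.99 to 3.09, edgeR adjusted p from 0.0587 to 0.0764). Krt5 was higher in nipple than in TEB by 3.08 ± 0.70 (edgeR adjusted p = 0.00579), from levels of 7.23, 3.25, 97.9 and 45.1 CPM against 0 to 8.82 CPM. Without nipple fragment N23 that difference was 2.06 and did not pass (edgeR adjusted p = 0.115). Other wells accounted for an estimated 54, 156 and 105% of Krt5 here in nipple, duct and TEB, and with that RNA taken off the difference was 3.88 and did not pass (exact permutation, adjusted p = 0.72).

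Krt4 varied more between fragments than between locations in ER+ luminal-like cells. It was at 28.9, 71.6, 24.5 and 329 CPM in the nipple fragments, 73.2 to 435 CPM in duct (median 214) and 14.8 to 227 CPM in TEB (median 84.2), and no pair passed (the largest difference was 1.21 ± 0.72 between duct and TEB, edgeR adjusted p = 0.663). Krt15 likewise reached 396 CPM in fragment N24 and lay between 3.62 and 104 CPM in all others.

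In ER- luminal-like cells Krt14 was the keratin that differed most, and it was highest in the nipple. Of 7 keratins tested (Krt4, Krt5 and Krt15 did not pass the filter), 4 were higher in nipple than in TEB (background 4.57% of 5706 genes), 1 was higher in nipple than in duct (1.63%) and 3 were higher in duct than in TEB (1.14%). Krt14 was at 3533, 1827, 1622 and 1663 CPM in the nipple fragments, at 22.2 to 451 CPM in the 6 duct fragments (median 85.6) and at 13.9, 2.74, 105 and 10.9 CPM in the TEB fragments T32, T33, T34 and T42. The lowest nipple fragment stood above the highest duct fragment. The difference was 6.44 ± 1.13 between nipple and TEB (edgeR adjusted p = 0.00677) and 3.92 ± 0.80 between nipple and duct (edgeR adjusted p = 0.0329). The second call was near the threshold and was lost without any 1 of the 4 nipple fragments or of the duct fragments D31, D32, D51 and D52, with differences of 3.58 to 4.03 and edgeR adjusted p from 0.056 to 0.0994. With classes set cell by cell from the marker lists instead of clusters, the differences from TEB and from duct were 4.05 and 3.91 and did not pass (edgeR adjusted p = 0.111 and 0.173).

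The Krt14 of nipple ER- luminal-like cells did not come with the rest of the basal keratins. Their sums held 2375 UMIs of Krt14 and 10 of Krt5, or 238 per UMI of Krt5, against 4.13 in basal-like cells of the same fragments, and 10.7 UMIs of Krt14 per UMI of Krt17 against 1.11. The summed level of the 8 basal markers was 52.1 to 70.9 CPM there, below the 109 to 442 CPM of duct ER- luminal-like sums. The 9 epidermal markers did move with it, summing to 2037 to 2835 CPM in nipple, 420 to 1184 CPM in duct and 484 to 653 CPM in TEB ER- luminal-like sums. Of these, Ly6d had a pooled level of 1660 CPM in nipple against 30.3 CPM in duct and 56.5 CPM in TEB, while Krtdap, Lor, Flg2 and Ivl were at 0 in nipple. The part of this list in the Krt14 result was not tested. The estimate from other wells was 5.08% of the Krt14 counts. With it taken off, nipple lay above duct by 5.03 (exact permutation, adjusted p = 0.0214), and nipple against TEB had a difference of 6.03 and an adjusted p of 0.0882 (exact permutation, 4 fragments against 4, where no smaller p than 0.0286 before adjustment is possible).

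Krt7 and Krt19 were the luminal keratins of ER- luminal-like cells with differences from TEB that passed. Krt7 was at 1988, 1879, 1807 and 1533 CPM in the nipple fragments, 1671 to 2528 CPM in duct (median 2000) and 969, 857, 599 and 688 CPM in TEB. All 4 TEB fragments were below every other, and the differences were 1.21 ± 0.18 from nipple (edgeR adjusted p = 2.76e-05) and 1.41 ± 0.17 from duct (edgeR adjusted p = 7.34e-06). With RNA of other wells taken off (an estimated 2.29 to 5.69% of these counts), the nipple difference was 1.14 and did not pass (exact permutation, adjusted p = 0.0882), and the duct difference held (exact permutation, adjusted p = 0.0214). Before adjustment the exact permutation p for nipple was 0.0286, the smallest possible with 4 fragments against 4, so this test cannot decide that pair. Krt7 thus differed in opposite directions in the 2 luminal classes between nipple and TEB, lower in nipple in ER+ and higher in nipple in ER- luminal-like cells. The difference between these 2 classes was not tested.

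Krt19 was higher than in TEB by 0.60 ± 0.17 in nipple (edgeR adjusted p = 0.032) and 0.65 ± 0.15 in duct (edgeR adjusted p = 0.0257), from levels of 5490 to 6241 CPM in nipple and 4872 to 7465 CPM in duct against 2393 to 4850 CPM in TEB. TEB fragment T42 was the lowest, and without it the differences were 0.42 and 0.48 and did not pass (edgeR adjusted p = 0.135 and 0.122). The nipple call was likewise lost without N21, N22, N24 or T33 (0.59 to 0.62, edgeR adjusted p from 0.0528 to 0.0669), and the duct call without D51 or D52 (0.59 and 0.62, edgeR adjusted p = 0.0669 and 0.0575). The nipple call was also lost with classes from marker lists (0.47, edgeR adjusted p = 0.0998), a UMI minimum of 10000 (0.56, edgeR adjusted p = 0.0682) or only the 2 locations compared (0.61, edgeR adjusted p = 0.0641). With RNA of other wells taken off (an estimated 2.56 to 6.75% of Krt19), the differences were 0.49 and 0.55 and neither passed (exact permutation, adjusted p = 0.0882 and 0.0779). For nipple the exact permutation p before adjustment was again the smallest possible (0.0286), so this test cannot decide that pair.

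Krt17, a basal keratin, was at 107, 152, 253 and 196 CPM in the nipple fragments, 91.8 to 286 CPM in duct and 20.8, 20.5, 27.4 and 79.3 CPM in TEB. Its differences from TEB were 2.20 ± 0.48 (edgeR adjusted p = 0.0044) and 2.10 ± 0.45 (edgeR adjusted p = 0.0105). Neither was called after the cells were thinned to 5000 UMIs (1.46 and 1.51, edgeR adjusted p = 0.11 and 0.111). Other wells accounted for an estimated 41.7, 52.9 and 33.2% of Krt17 in nipple, duct and TEB, and with that RNA taken off the differences were 1.88 and 1.38 (exact permutation, adjusted p = 0.132 and 0.589). For nipple against TEB even the smallest exact permutation p possible (0.0286) was adjusted to 0.0882, so this test cannot decide that pair. With classes set from the marker lists they were 0.51 and -0.81 (edgeR adjusted p = 0.887 and 0.914), and the duct call was also lost without T33 (1.88, edgeR adjusted p = 0.0559).

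Krt8 and Krt18 of ER- luminal-like cells were lower in TEB on average (5955 and 4780 CPM, against 10010 and 7328 CPM in nipple) without passing, with differences between nipple and TEB of 0.75 ± 0.24 and 0.62 ± 0.25 (edgeR adjusted p = 0.0904 and 0.212). Krt23 was at 107, 61.7, 108 and 143 CPM in the nipple fragments, 8.96 to 144 CPM in duct and 3.47, 32.8, 22.9 and 43.6 CPM in TEB. Nipple and TEB did not overlap, and the difference of 1.96 ± 0.73 did not pass (edgeR adjusted p = 0.131). Its direction was the reverse of that in basal-like cells.

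Whether a location difference itself differed between classes was tested with an interaction term and the fragment as a block. Against ER+ luminal-like cells the term passed for Krt8 (edgeR adjusted p = 9.55e-05), Krt18 (0.00133) and Krt19 (0.00487), or 3 of 10 keratins (background 6.64% of 9370 genes). The term covers the changes from nipple to duct and from nipple to TEB together. From nipple to TEB the log2 change in ER+ luminal-like cells exceeded that in basal-like cells by 1.21 for Krt8, 1.85 for Krt18 and 0.79 for Krt19. From nipple to duct the same values were -0.10, 0.48 and -1.14, so for Krt19 the duct value was the larger in size. In basal-like cells Krt8 and Krt18 were lower in TEB than in nipple while Krt19 did not pass in that pair (0.52, edgeR adjusted p = 0.165), and in ER+ luminal-like cells none of the 3 passed. Against ER- luminal-like cells the term passed for Krt19 (edgeR adjusted p = 0.000797), Krt23 (0.00344), Krt8 (0.0204) and Krt14 (0.0455), or 4 of 9 keratins (background 2.79% of 7944 genes). For Krt23 the change from nipple to TEB was -4.14 in ER- relative to basal-like cells (-1.21 to duct), and for Krt14 the change from nipple to duct was -3.91 (-3.03 to TEB). For Krt19 and Krt8 the change from nipple to duct was -1.46 and -0.77, and that from nipple to TEB only 0.11 and 0.12. The count of calls against ER- luminal-like cells fell to 2 without any 1 of D51, D62, N21, N24, T32 and T33. The basal-like side of these terms compares cluster 1 with cluster 5 where TEB is concerned.

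Co-expression of the 2 keratin pairs was counted in single cells, each thinned to 10000 UMIs so that depth was equal, and a cell was counted when it held at least 10 UMIs of Krt5 and Krt14 together and at least 10 of Krt8 and Krt18 together. Shallower cells left out were 7 nipple, 9 duct and 5 TEB basal-like cells. Both pairs were found in 78 of 90 nipple basal-like cells (86.7%, exact 95% binomial interval 77.9 to 92.9%), in 106 of 106 duct cells (96.6 to 100%) and in 23 of 77 TEB cells (29.9%, 20 to 41.4%). By fragment the shares were 87.0, 80.8, 90.5 and 90.0% in nipple, 100% in all 6 duct fragments and 18.2 to 50% in TEB. The means of 87.1 ± 4.47% (SD, n = 4), 100 ± 0% (n = 6) and 33 ± 13.6% (n = 6) differed in all 3 pairs by a two-sided exact permutation test, by 54.0 percentage points between nipple and TEB (p = 0.00476), -12.9 between nipple and duct (p = 0.00476) and 67.0 between duct and TEB (p = 0.00216), each the smallest p possible and each adjusted to 0.00476.

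The cells that missed the mark did so for different keratins. In TEB 26 of 77 basal-like cells (33.8%) reached the Krt5 and Krt14 mark and 55 of 77 (71.4%) the Krt8 and Krt18 mark, whereas in nipple 89 of 90 reached the first and 78 of 90 the second. Without thinning the shares with both pairs were 96.9, 100 and 59.8% in nipple, duct and TEB, at median depths of 21460, 23040 and 43900 UMIs. As a background, no fibroblast-like or myeloid-like cell carried both pairs (0 of 124, 0 of 53 and 0 of 127 thinned cells, which allows shares of up to 2.42, 5.66 and 2.36%). The luminal pair alone reached the mark in 2.42% of these stromal cells in nipple, 39.6% in duct and 12.6% in TEB, at median depths of 37440, 25220 and 31710 UMIs. At a mark of 20 UMIs for each pair, which 11.3% of duct and 0% of the other stromal cells reached for the luminal pair, both pairs were found in 71.1, 93.4 and 6.49% of nipple, duct and TEB basal-like cells. Intervals and limits cover counting error only.

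**Figure D4:**
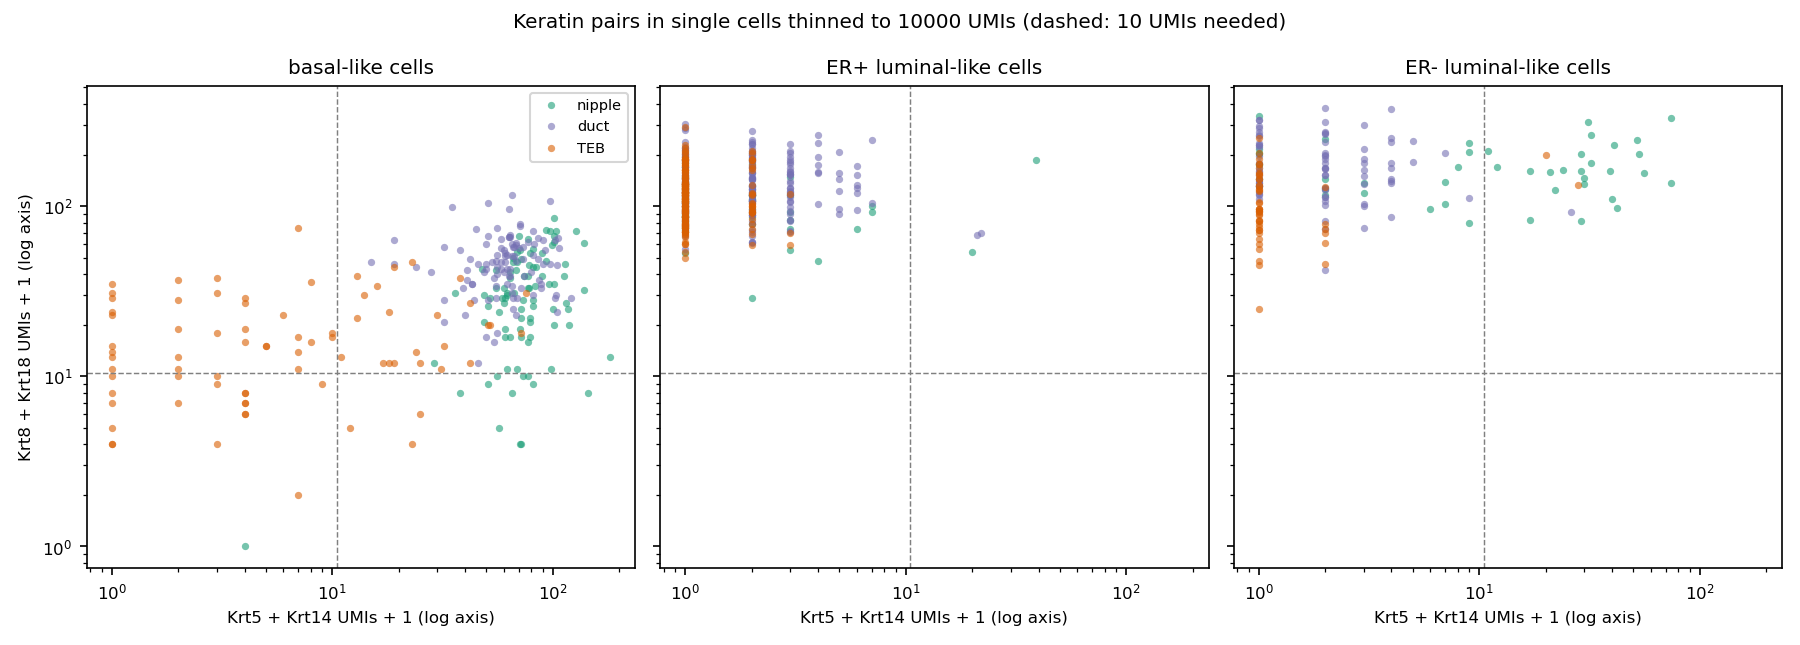
Krt5 + Krt14 UMIs against Krt8 + Krt18 UMIs (both + 1, log axes) in single cells thinned to 10000 UMIs, coloured by location, 1 panel per class, with dashed lines at the mark of 10 UMIs. Nipple and duct basal-like cells fill the upper right, TEB basal-like cells spread to the left of the vertical line, and in the ER- panel the nipple cells alone extend to the right in number (24 of 45).

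Luminal cells with both pairs were rare except in one group. They numbered 2 of 42, 2 of 202 and 0 of 167 ER+ luminal-like cells in nipple, duct and TEB, and 1 of 78 and 2 of 48 ER- luminal-like cells in duct and TEB. In nipple ER- luminal-like cells they numbered 24 of 45 (53.3%, exact 95% interval 37.9 to 68.3%), spread over all fragments as 7 of 9 cells in N21, 4 of 11 in N22, 6 of 12 in N23 and 7 of 13 in N24. These 24 cells had a median of 29 and a maximum of 73 UMIs of Krt14 among 10000, with a median of 93.5 UMIs of Krt8. Only 2 of the 24 had any UMI of Krt5 and 0 had 3 or more. The other 21 nipple cells of the class had fewer than 10 UMIs of Krt14. Since nipple ER- luminal-like cells (median 20320 UMIs) were shallower than those of duct (25970) and TEB (38450), thinning removed more UMIs from the locations with the lower shares. Without thinning the shares of ER- luminal-like cells with both pairs were 66.7% in nipple, 4.94% in duct and 4.08% in TEB.

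The balance of the 2 keratin types also moved with location. UMIs of the 6 type I genes were set against those of the 4 type II genes as a log2 ratio per fragment. In basal-like cells the ratio was 1.84 ± 0.08 in nipple (SD, n = 4), 1.37 ± 0.10 in duct (n = 6) and 1.02 ± 0.25 in TEB (n = 6), that is 3.59, 2.58 and 2.03 type I UMIs per type II UMI. All 3 pairs differed (two-sided exact permutation, p = 0.00476 for nipple over TEB, 0.00476 for nipple over duct and 0.013 for duct over TEB, adjusted over 9 tests to 0.0143, 0.0143 and 0.0184). In ER+ luminal-like cells nipple (0.72 ± 0.13) lay above TEB (0.41 ± 0.07, exact permutation, adjusted p = 0.0143) and above duct (0.50 ± 0.11, adjusted p = 0.0171), and duct against TEB did not pass (adjusted p = 0.117). The nipple against duct call was lost without N23 (difference 0.17, adjusted p = 0.0918) or N24 (0.21, adjusted p = 0.0612). In ER- luminal-like cells duct (0.24 ± 0.04) lay below nipple (0.43 ± 0.10, exact permutation, adjusted p = 0.0171) and below TEB (0.38 ± 0.09, adjusted p = 0.0184, but -0.076 and 0.439 adjusted with cells thinned to 5000 UMIs), and nipple and TEB did not differ beyond the spread (adjusted p = 0.571).

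**Figure D5:**
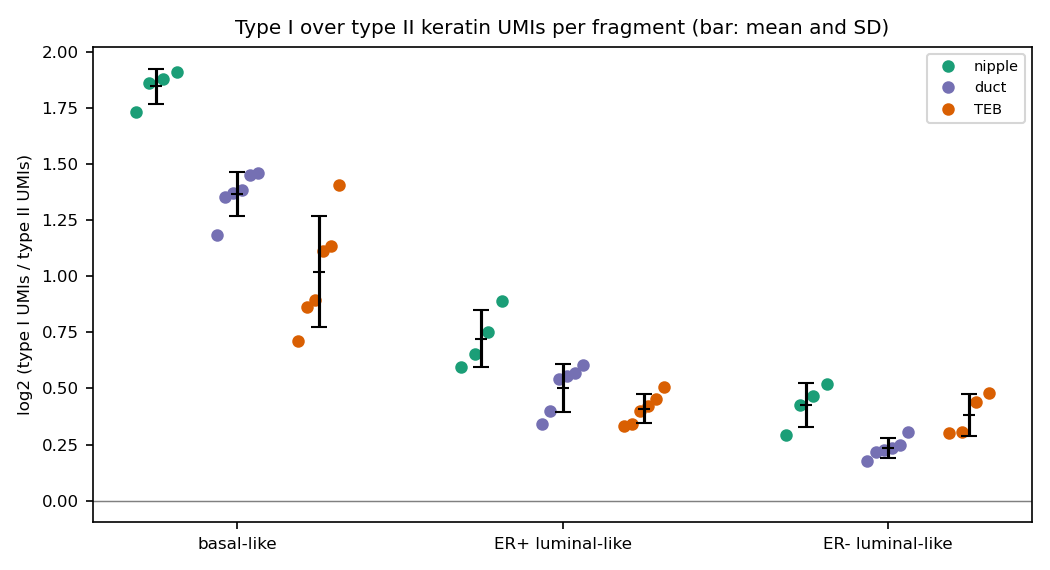
log2 ratio of type I to type II keratin UMIs per fragment in the 3 epithelial classes, with points for fragments coloured by location and bars for the mean and SD. Basal-like means are 1.84 in nipple, 1.37 in duct and 1.02 in TEB, while luminal fragments lie between 0.18 and 0.89.

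Within the luminal pair, Krt8 and Krt18 UMIs were nearly balanced in luminal cells and unequal in basal-like cells. There were 1.03, 1.12 and 1.19 UMIs of Krt8 per UMI of Krt18 in ER+ luminal-like cells of nipple, duct and TEB, and 1.36, 1.33 and 1.26 in ER- luminal-like cells. In basal-like cells there were 2.31, 3.92 and 3.98, with fragments between 1.82 and 6.38. RNA of other wells took a larger share of Krt18 than of Krt8 in basal-like cells, as given above.

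The other 34 keratin rows gave 8 genes that could be tested in any class, and 1 call. That was Krt16 in basal-like cells, at 170 ± 84.1 CPM in nipple, 53.3 ± 42.9 in duct and 16.0 ± 17.5 in TEB, and higher in nipple than in TEB by 3.43 ± 0.72 (edgeR adjusted p = 0.00132), 1 of the 4 tested there (background 18.7%). Krt16, usually a keratin of wounded skin, is one of the genes that share near-identical stretches with Krt14 and Krt17. Krt6a, a type II keratin named here after its values were seen, was at 632 ± 117 CPM in nipple, 723 ± 291 in duct and 658 ± 156 in TEB ER+ luminal-like cells, above Krt4 in the same class, and at 7.84 to 25.1 CPM on average in ER- luminal-like and 26.3 to 63.5 CPM in basal-like cells. No difference between locations passed for it where it was tested. Krt6a has a near-identical copy, so its level is uncertain.

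Of the 15 genes that anchor filaments to junctions and the matrix or otherwise join the filament network (desmosome plaques, plakins, hemidesmosomes, Fam83h and Vim), 13 were tested in basal-like cells. Between nipple and TEB 6 of 13 passed, all higher in nipple (median of the list 0.66, background 18.7%), among them Eppk1 (2.21 ± 0.50), Vim (1.63 ± 0.21), Ppl (1.54 ± 0.34) and Pkp1 (1.37 ± 0.41). Between duct and TEB 6 of 13 passed, all higher in duct (median 0.60, background 10.4%), among them Eppk1 (1.97 ± 0.47), Pkp1 (1.77 ± 0.38) and Vim (0.84 ± 0.19). Between nipple and duct 2 of 13 passed (background 6.29%), Vim higher in nipple (0.79 ± 0.21) and the filament organiser Fam83h, named after its values were seen, higher in duct (-1.48 ± 0.44). Vim, the intermediate filament gene of fibroblasts and myoepithelium, was at 1099 ± 75.4 CPM in nipple, 635 ± 244 in duct and 353 ± 94.8 in TEB, in the same nipple sums that had more fibroblast markers. In ER- luminal-like cells (background 4.57% between nipple and TEB, 1.14% between duct and TEB and 1.63% between nipple and duct) the plakin Plec alone passed, lower in TEB by 1.42 ± 0.35 from nipple (edgeR adjusted p = 0.0127) and 1.28 ± 0.32 from duct (edgeR adjusted p = 0.04), and 0 of 13 passed between nipple and duct (1 at an unadjusted p under 0.05, 0 by DESeq2). In ER+ luminal-like cells 0 of 14 passed in each pair (background 5.58, 1.66 and 1.98% in the same order, 1 each at an unadjusted p under 0.05, 0 by DESeq2).

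The genes whose levels ran most like each keratin over the 46 fragment sums of the 3 classes were mostly genes of the same layer. These are descriptions over sums that share fragments and classes, among 3196 genes with a mean of at least 50 CPM. Krt5 ran closest to Acta2, smooth muscle actin (Pearson r = 0.96), and Krt17 to Cxcl14 (0.96). Krt15 ran closest to Actg2 (0.88), whereas Krt14 ran closest to the matrix genes Bgn (0.89) and Sparc (0.85), and the cause was not tested. Anxa1 led for Krt8 (0.93), Krt18 (0.96) and Krt19 (0.95), and Cd82 led for Krt7 (0.95). Krt4 ran closest to Gipc2 (0.84) and to Cited1 (0.83), and Krt23 to Pls3 (0.85).

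At the level of single cells the partners of a pair were linked to different degrees. These correlations of thinned counts describe cells that share fragments and carry no test. Krt8 and Krt18 had a Pearson r of 0.74 over 411 ER+ and 0.84 over 171 ER- luminal-like cells, and of 0.68 to 0.82 within each location. Krt5 and Krt14 had 0.67 over the 273 basal-like cells together, but 0.17 within nipple (90 cells), 0.20 within duct (106) and 0.51 within TEB (77).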

How the data were processed

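Single cells of nipple, duct and TEB fragments had been sorted into multiwell plates with lysis buffer, spike-in RNA and a well barcode, and 3′ SMART-seq libraries were sequenced. Per the study's methods and the submitters' processing notes, the authors used Trim Galore, FastQC, UMI-tools, STAR with unique alignments to mm10 and featureCounts (versions are not given in the sources used here), and deposited raw UMI counts per gene and cell. Unique alignment leaves genes with near-identical copies (Krt14, Krt16 and Krt17, and Krt8 with its pseudogenes) uncertain. The table holds the number of cells that the study's methods state. Doublets were not called. No column belonged to other samples (0 columns).

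The 10 keratins and the lists were chosen with earlier results of these data known. Cells were kept and clustered with Seurat 5.3.0 (R 4.3.3) under the study's limits, with all keratins left out, and clusters were named from fixed marker lists, limited to the study's populations. The rule that a cluster must have over 0.5 of a list's markers was set after the clusters were seen. In the alternative without regression in scaling, a cluster of 68 cells led by Gpx2, Fabp5 and A230065H16Rik had exactly 0.5 and stayed unnamed. The basal-like clusters of that alternative held 101 and 28 cells. For each class the UMIs of a fragment's cells were added up where it had 5 or more, and these sums were tested with edgeR 4.0.16 (TMM, filterByExpr, quasi-likelihood F-test, all locations in 1 fit, Benjamini-Hochberg over all genes, threshold 0.05). CPM is the UMI count scaled by the TMM-adjusted library size, and by the unadjusted size where RNA of other wells is estimated. Shares and ratios were tested by exact permutation over fragments in Python 3.11.15 (scipy 1.17.1), two-sided. DESeq2 1.42.0 and the other alternatives are given in the closing section. On simulated counts with known changes the nipple against TEB fit of basal-like cells recovered 54.2% of genes changed by 2 and 12.6% of those changed by 1 on the log2 scale (6845 genes), with 2 of 60 calls false. For ER- luminal-like cells and the same pair these shares were 41.5% and 10%. The location by class terms recovered 26.3% and 1.9% against ER+, and 13.9% and 2.02% against ER- luminal-like cells, so a missing call there says little. The named genes were all 10 keratins, called genes of the other keratins (up to 5 per class) and of the filament linkers (up to 4 per class), and the 3 genes most like each keratin, of which the first are printed. Interval bounds were set at 95% and limits for a count of 0 at 3 cells. Fragment totals ran from 1856141 to 5233122 UMIs.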

Additional observations from a re-analysis of the deposited data

Results flagged for a closer look

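In 16 of the 90 groups of 4 to 6 fragments examined, 1 fragment stood apart from the others by Dixon's criterion, which chance alone gives in about 1 of 20 groups. Several were basal keratins in luminal cells. Krt14 was at 261 CPM in duct ER+ luminal-like cells of D51 (next 103), and in ER- luminal-like cells at 3530 CPM in nipple N21 (next 1830), 451 CPM in duct D61 (next 115) and 105 CPM in TEB T34 (next 13.9). Krt15 was at 396 CPM in nipple ER+ luminal-like cells of N24 (next 28.0) and at 0 CPM in ER- luminal-like cells of N21 (next 15.8). Krt17 was at 79.3 CPM in TEB ER- luminal-like cells of T42 (next 27.4).

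In basal-like cells, TEB fragment T32 had 1040 CPM of Krt5 (next 522), duct fragment D31 had 1380 CPM of Krt18 (next 1030) and 2690 CPM of Krt19 (next 1760), and nipple fragment N21 had 141 CPM of Krt4 (next 3.83). In ER+ luminal-like cells, TEB fragment T34 had 7300 CPM of Krt18 (next 5190) and 9830 CPM of Krt19 (next 6470), duct fragment D52 had 8650 CPM of Krt19 (next 6730), and nipple fragment N24 had 329 CPM of Krt4 (next 71.6). Krt4 was at 3.17 CPM in ER- luminal-like cells of N24 and at 0 in the other nipple fragments.

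The effect of location differed between classes for 7 keratin and class pairs by edgeR's test of the interaction. For basal-like against ER+ luminal-like cells these were Krt8 (adjusted p = 9.55e-05), Krt18 (adjusted p = 0.00133) and Krt19 (adjusted p = 0.00487), over 16 fragments. For basal-like against ER- luminal-like cells they were Krt19 (adjusted p = 0.000797), Krt23 (adjusted p = 0.00344), Krt8 (adjusted p = 0.0204) and Krt14 (adjusted p = 0.0455), over 14 fragments.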

How the results depend on the processing

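Of 540 alternative values of the counts, shares and ratios, 486 kept their direction and side of the threshold (counts within 1.5 times), as did 806 of 853 for single called keratins, of which 45 were lost and 2 reversed. Without regression in scaling, a cluster led by the same genes as cluster 5 stayed unnamed, so that alternative did not include its cells in the basal-like class. The reversed values were Krt17 in ER- luminal-like cells between duct and TEB with classes from marker lists (-0.81) and Krt14 in ER+ luminal-like cells between duct and TEB with RNA of other wells taken off (-1.69). The value for Krt14 came from mean levels left of -1.82 CPM in duct and 2.23 CPM in TEB, close to the floor. For Krt17 the cause was not tested.

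The 1 keratin called in ER+ luminal-like cells between duct and TEB became 2 at clustering resolution 1, with at least 10 cells per sum, with no filter on low counts or with cells thinned to 5000 UMIs, and 3 with marker-list classes, with DESeq2 or with only the 2 locations compared. The 0 called there between nipple and duct became 1 at resolution 1, with at least 10 cells per sum, with no filter, with thinning or with only the 2 locations. In ER- luminal-like cells marker-list classes left 1 of 4 calls between nipple and TEB and 0 of 1 between nipple and duct, and no filter on low counts also left 0 of that 1. The 2 calls in basal-like cells between nipple and duct became 4 with thinning and with only the 2 locations, and the 3 interaction calls against ER+ luminal-like cells became 5 with DESeq2. The type I to type II difference between nipple and duct in ER+ luminal-like cells was 0.21 without Krt23 and Krt4 (adjusted p = 0.0612) and 0.26 with thinning (adjusted p = 0.0571), and in ER- luminal-like cells that of duct and TEB was -0.076 with thinning (adjusted p = 0.439), by exact permutation.

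With each fragment left out in turn, called keratins in basal-like cells numbered 9 to 9 between duct and TEB, 7 to 8 between nipple and TEB and 2 to 3 between nipple and duct. In ER+ luminal-like cells they numbered 0 to 3, 2 to 4 and 0 to 3 (3 without T34), and in ER- luminal-like cells 2 to 3, 3 to 5 and 0 to 1. Interaction calls numbered 3 to 5 against ER+ luminal-like cells (5 without N24) and 2 to 4 against ER- luminal-like cells. The difference in the share of cells with both pairs ran from 51 to 57.4 points between nipple and TEB, -14.1 to -10.9 between nipple and duct and 64.0 to 70.4 between duct and TEB. The type ratio difference ran, in the same order, from 0.76 to 0.90, 0.44 to 0.52 and 0.28 to 0.42 in basal-like cells, from 0.26 to 0.36, 0.17 to 0.26 and 0.072 to 0.12 in ER+ luminal-like cells (duct against TEB was called without D62, 0.12, adjusted p = 0.0334 by exact permutation), and from 0.01 to 0.09, 0.16 to 0.24 and -0.17 to -0.11 in ER- luminal-like cells.

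Duct and TEB fragments shared the numbers 31 and 32 alone, and same-numbered sums did not deviate together (correlations from -0.01 to 0.04). With so few shared numbers, these correlations cannot decide whether same-numbered fragments came from the same mouse, which the labels do not name. A replicate block on these fragments gave 6 calls in ER+ luminal-like cells between duct and TEB and ended the basal-like calls of Krt15 (4.01, edgeR adjusted p = 0.424), Krt5 (1.59, edgeR adjusted p = 0.166) and Krt23 (-1.41, edgeR adjusted p = 0.0607). ER- luminal-like sums shared 1 number, so no block could be fitted there.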
